A study of Mus musculus with 2 samples.

Results

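The genes described are 10 regulators of protein ubiquitination that are known for roles in T cell activation and tolerance: the RING-type ligases Cblb, Rnf128 and Peli1, the HECT-type ligases Itch and Nedd4, the HECT ligase adaptors Ndfip1 and Ndfip2, the TRAF proteins Traf3 and Traf6, and the deubiquitinase Cyld. They were matched by gene symbol and are 10 of 55536 annotated genes in the tables; no measured value enters the rule, but the genes were proposed with earlier results of these data known. The data are polyA-selected RNA-seq of mouse regulatory T cells (Treg cells, CD4 T cells that hold back immune responses) from a male at 9 weeks of age. The labels give 2 libraries of 1 biosample, technical replicates 1 and 2 of biological replicate 1, from RNA fragmented by shearing. There is 1 group, no treatment and no other cell type, so no comparison between conditions could be made. The sources used here do not name the strain, the sorting markers, the tissue or the cell number.

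Ubiquitin is attached to proteins by a relay of an activating enzyme (E1), a conjugating enzyme (E2) and a ligase (E3), and the ligase selects the substrate. RING-type ligases bring a loaded E2 to the substrate, whereas HECT-type ligases carry the ubiquitin themselves before passing it on. In T cells, Cbl-b, Itch and GRAIL (the product of Rnf128) are known for ending or raising the threshold of antigen receptor signals. Deubiquitinases such as Cyld remove the chains that carry signals to NF-kB.

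Annotated genes took 34697128 estimated counts in library 1 and 32049199 in library 2. Levels are in TPM, a length-corrected abundance scaled to a fixed total, which can be compared between genes, and are given as the mean ± SD of the libraries (n = 2). This spread is technical and says nothing of differences between mice. All 5 Treg markers were high (Foxp3 at 108 and 111 TPM, Il2ra at 364 and 371 TPM), as were all 6 pan-T cell markers, from 318 to 3814 TPM. Markers of other cells were present at lower summed levels: 45.8 and 40.3 TPM for 4 B cell genes, 25.8 and 26.1 TPM for 2 CD8 genes, 20.5 and 14.5 TPM for 4 myeloid genes, 2.02 and 2.02 TPM for 3 dendritic cell genes, 1.73 and 1.68 TPM for 2 NK cell genes and 0.37 and 0.01 TPM for 3 genes of stroma and endothelium. The 4 globin genes summed to 381 and 348 TPM. Single genes made up most of the B cell, CD8 and myeloid sums. Cd79b had 33.0 and 28.65 TPM, and Cd8b1 had 24.1 and 23.3 TPM against 1.69 and 2.84 TPM for Cd8a. Lyz2 had 14.4 and 11.85 TPM, whereas Itgam and Adgre1 lay under 1 TPM in both libraries. Of the other cells' defining markers, Ncr1 was at 0 in both libraries. In a bulk sample, fewer cells of a type and less RNA per cell cannot be told apart.

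All 10 genes were detected, defined as at least 1 TPM in both libraries, whereas 48.0% of 22028 protein-coding genes were. Their median was 79.6 TPM, against 31.1 TPM for the 10583 detected protein-coding genes, whose quartiles are 10.6 and 71.5 TPM. The genes nevertheless spanned a 302-fold range of mean level from Ndfip1 to Rnf128. Library 1 alone gave 282-fold, with Nedd4 as the lowest gene, and library 2 alone gave 580-fold, with Rnf128 as the lowest. In order of mean level they were Ndfip1, Peli1, Cyld, Ndfip2, Cblb, Itch, Traf3, Traf6, Nedd4 and Rnf128. The library ranges of 3 neighbouring pairs overlapped, so the order within Cyld and Ndfip2, Cblb and Itch, and Nedd4 and Rnf128 is not resolved. The library ranges of the other 6 neighbouring pairs did not overlap. For Traf3 and Traf6, however, the deposited credibility intervals did, as given below.

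**Figure D1:**
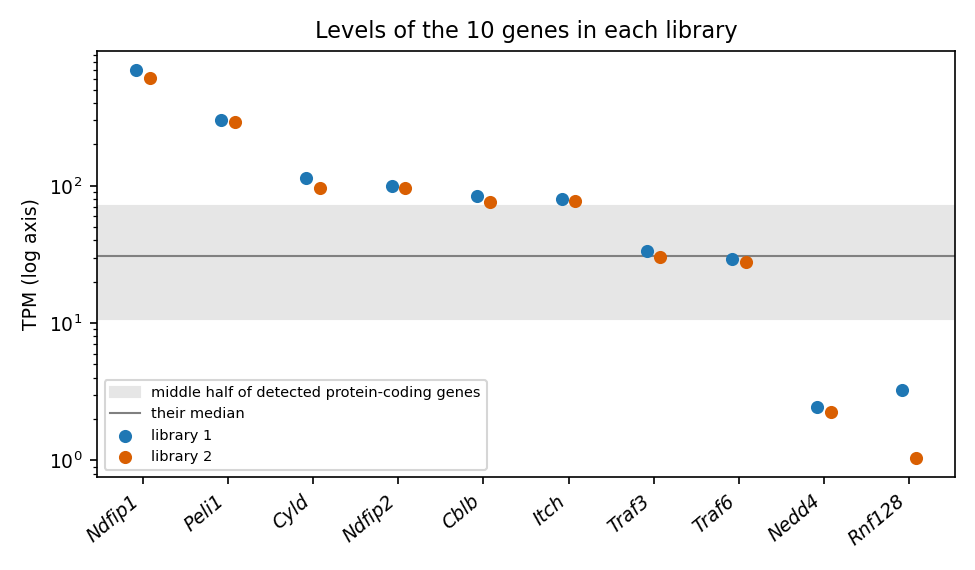
TPM of each gene (log axis) in library 1 and library 2, ordered by mean, with the median (31.1 TPM, line) and the quartiles (10.6 and 71.5 TPM, band) of detected protein-coding genes. Ndfip1 to Itch lie above the band, Traf3 and Traf6 near the line, and Nedd4 and Rnf128 below the band, where Rnf128 has the widest gap between libraries.

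Sequences are shown first where the transcript models of a gene differ inside the coding region or by reading into an intron, because these differences carry the results on transcript forms below. They are spliced sequences of GENCODE M21 transcripts on mm10, given 5′ to 3′ on the plus strand.

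The models of Cblb differ by a coding exon of 132 bases (44 codons, chr16:52186349-52186480). The exon is in capitals in the first line, and the exon after the junction that leaves it out is in capitals in the second.
Cblb-206, with the exon: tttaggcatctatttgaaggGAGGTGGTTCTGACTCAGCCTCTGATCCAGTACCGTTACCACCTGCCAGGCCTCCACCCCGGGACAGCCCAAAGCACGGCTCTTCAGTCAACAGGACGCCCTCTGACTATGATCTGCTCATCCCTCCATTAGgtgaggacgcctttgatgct
Cblb-201, without it: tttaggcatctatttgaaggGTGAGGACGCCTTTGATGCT

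A retained-intron model, Cblb-202, reads on into the intron that begins at position 52047450 of chromosome 16. Capitals mark the intron in the first line and the next exon in the second.
Cblb-202, read-through: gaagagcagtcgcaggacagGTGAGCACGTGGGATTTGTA
Cblb-201, spliced: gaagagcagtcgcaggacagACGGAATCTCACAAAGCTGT

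The same contrast exists in Peli1, where Peli1-204 reads into the intron that begins at position 21142658 of chromosome 11. Capitals have the same meaning as for Cblb-202.
Peli1-204, read-through: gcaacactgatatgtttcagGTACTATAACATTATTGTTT
Peli1-201, spliced: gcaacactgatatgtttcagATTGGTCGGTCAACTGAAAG

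In Cyld, the model Cyld-204 lacks 2 coding exons of 380 and 166 bases (546 bases, 182 codons) and other models carry an exon of 9 bases. Capitals mark the exon after each junction, or the 9-base exon itself.
Cyld-204, junction over the 2 exons: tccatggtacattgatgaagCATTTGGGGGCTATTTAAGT
Cyld-202, with the 9-base exon: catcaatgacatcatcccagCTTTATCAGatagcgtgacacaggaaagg
Cyld-203, without it: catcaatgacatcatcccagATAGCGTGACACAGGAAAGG

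In Traf3, the model Traf3-203 lacks a coding exon of 75 bases (25 codons, chr12:111251130-111251204). Capitals mark that exon in the first line and the exon after the junction in the second.
Traf3-201, with the exon: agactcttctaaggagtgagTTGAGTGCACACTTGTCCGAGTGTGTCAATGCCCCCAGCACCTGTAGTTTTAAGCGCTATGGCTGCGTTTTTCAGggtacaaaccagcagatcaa
Traf3-203, without it: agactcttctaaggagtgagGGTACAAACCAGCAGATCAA

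Cblb (chromosome 16, 52031225 to 52208048) encodes Cbl-b, a ligase that limits the response of T cells that receive no costimulation. Its level was 84.6 TPM in library 1 and 76.3 TPM in library 2 (80.5 ± 5.89 TPM). This placed it above 77.5% of detected protein-coding genes. Its close relative Cbl stood at 39.8 and 39.2 TPM, so Cblb exceeded Cbl 2.13-fold and 1.95-fold. The third relative, Cblc, was at 0.14 and 0.32 TPM and was not detected. Cblb thus held 66.9 ± 1.46% of the summed TPM of the 3 genes.

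The leading Cblb model by TPM was not a coding one. Cblb-202, the retained-intron transcript shown above, took 40.1% and 36.1% of gene TPM, the coding model Cblb-201 took 30.5% and 35.99%, Cblb-206 took 17.6% and 16.3%, and Cblb-204 took 10.8% and 9.72%. In library 2 the shares of Cblb-202 and Cblb-201 lay within 1 percentage point of each other. By estimated counts, which are not corrected for length, Cblb-201 led with 43.4% and 49.5%, and Cblb-202 took 33.6% and 29.2%. Cblb-202 has 3 exons, begins near the 5′ end of the gene, at 52031645, and ends at 52050905, well before the gene's end. Grouped by the protein they encode, models of 938 codons, which lack the 132-base exon, took 43.5 ± 3.11% of TPM, and models of 982 codons, which contain it, took 17.4 ± 0.21%. The deposited intervals of single models were wide for the longer form: Cblb-206 had 14.9 TPM in library 1, with a credibility interval from 5.42 to 14.8 TPM.

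Rnf128 (chromosome X, 139563316 to 139673145) encodes GRAIL, a membrane-bound RING ligase first known from anergic T cells. It was the lowest of the 10 genes by mean. Library 1 gave 3.27 TPM and library 2 gave 1.05 TPM (2.16 ± 1.57 TPM). Only 5.17% of detected protein-coding genes lay below it. These levels rest on 160 and 56 estimated counts. Among 9 ligases of the same protease-associated domain and RING type, Rnf167 was highest at 358 and 338 TPM. Rnf130, Rnf149 and Rnf13 lay between 32.3 and 47.3 TPM in each library. Rnf133, Rnf148 and Znrf4 had no estimated count in either library, which allows up to 3 counts each, and Rnf150 had 1 and 0. Rnf128 held 0.667% and 0.229% of the TPM of this group.

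Of the Rnf128 models, Rnf128-201 (428 codons) took 79.8% and 94.3% of gene TPM. The noncoding model Rnf128-203 took the rest, 0.66 and 0.06 TPM, on 10.8 and 0.9 estimated counts. The coding model of 402 codons, Rnf128-202, which begins at an upstream first exon, was at 0 in both libraries. By posterior means Rnf128-201 took 74.3% and 68.6%, Rnf128-203 took 22.9% and 22.9%, and Rnf128-202 took 2.82% and 8.47%. Neither the change in shares between libraries nor the 0 of Rnf128-202 is therefore resolved. The 250 bases before the start of Rnf128-201 are shown because the coding model that begins there took most of the gene's TPM, whereas Rnf128-203 begins downstream, at 139611367. They are the RefSeq promoter window on GRCm38 (chrX:139610370-139610619), ending at the base before the start site, with each match to the NFAT core motif GGAAA, on either strand, in capitals.
Rnf128, upstream: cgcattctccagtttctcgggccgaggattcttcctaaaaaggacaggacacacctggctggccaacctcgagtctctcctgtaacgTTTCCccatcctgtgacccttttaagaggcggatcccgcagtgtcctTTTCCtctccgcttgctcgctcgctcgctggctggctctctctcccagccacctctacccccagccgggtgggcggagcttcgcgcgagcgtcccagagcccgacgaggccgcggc

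Peli1 (chromosome 11, 21091291 to 21150323) encodes Pellino 1, a RING-type ligase known in T cells for acting on the NF-kB protein c-Rel. Its level of 301 TPM in library 1 and 289 TPM in library 2 (295 ± 8.58 TPM) was the second of the 10 and above 95.7% of detected protein-coding genes. The relative Peli2 had 3.11 and 2.39 TPM. Peli3 had 0.47 TPM in library 1 and was listed at 0 in library 2, so it was not detected. Peli1 held 99.0 ± 0.25% of the TPM of the 3 Pellino genes. Rel, the gene of its described substrate c-Rel, stood at 23.8 and 26.4 TPM, and Peli1 exceeded it 12.7-fold and 10.97-fold. The coding model Peli1-201 (418 codons) took 83.3% and 82.9% of Peli1 TPM. Peli1-204, shown above, took 12.7% and 12.5% by TPM but 4.25% and 4.19% by estimated counts. Like Cblb-202 it starts at the 5′ end of the gene and ends inside an intron, at 21143005.

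Itch (chromosome 2, 155133509 to 155226855) encodes a HECT ligase whose described substrates in T cells include JunB. It had 80.0 TPM in library 1 and 77.6 TPM in library 2 (78.8 ± 1.74 TPM). Nedd4 (chromosome 9, 72662346 to 72749852), the founding gene of the same family, had 2.47 and 2.27 TPM (2.37 ± 0.14 TPM). Itch exceeded Nedd4 32.4-fold and 34.2-fold. Both libraries put these genes far apart, while each gene changed little between them.

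Of the 9 genes of the NEDD4 family, 7 were detected. Wwp2 was highest at 98.6 and 92.1 TPM, 1.23-fold and 1.19-fold above Itch. By estimated counts Itch was highest instead, with 6412 and 5858 against 6073 and 5292 for Wwp2. Smurf1 stood at 33.4 and 26.6 TPM, Nedd4l at 24.1 and 20.4 TPM, Smurf2 at 21.2 and 19.1 TPM and Wwp1 at 8.75 and 8 TPM. Nedd4 was the lowest of the detected 7, and its nearest paralog Nedd4l exceeded it 9.77-fold and 8.97-fold. Hecw1, at 0.10 and 0.11 TPM, and Hecw2, at 0 and 0.26 TPM, were not detected. Itch held 30.6 ± 1.19% of the family's TPM and Nedd4 held 0.92 ± 0.0012%.

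The 2 full-length coding models of Itch encode the same number of codons, 864, and together took 58.0 ± 2.68% of Itch TPM, or 80.2 ± 1.96% of its estimated counts. Itch-201 took 40.3% and 34.8% of TPM and Itch-202 took 19.6% and 21.3%. The 2-exon retained-intron model Itch-204 took 23.5% and 24.5% of TPM but 6.95% and 7.47% of counts. It too begins at the gene's 5′ end, and it ends at 155139289. For Nedd4, the coding model Nedd4-201 (887 codons) took 75.6% and 68.3% of TPM and 88.3% and 89.3% of counts. By posterior means its share was lower, at 53.7% and 46.8%. The retained-intron model Nedd4-205 took 9.35% and 14.5% of TPM on 11.3 and 15.7 counts. Nedd4-203 took 0% and 16.3% of TPM, the latter on 3.78 counts, so at this depth its share is not measurable.

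Ndfip1 and Ndfip2 encode membrane proteins that bind and activate HECT ligases of the NEDD4 family, Itch among them. Ndfip1 (chromosome 18, 38410396 to 38465303) was the highest of the 10 genes, with 695 TPM in the first library and 609 TPM in the second (652 ± 61.4 TPM). It lay above 98.5% of detected protein-coding genes. Ndfip2 (chromosome 14, 105258573 to 105309298) had 98.9 and 96.7 TPM (97.8 ± 1.60 TPM). Ndfip1 exceeded Ndfip2 7.03-fold and 6.30-fold, and it exceeded Itch 8.69-fold and 7.85-fold.

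The adaptor list also held the arrestin-domain genes. Txnip, which encodes a thioredoxin-binding protein of this fold, had 600 and 566 TPM, next to Ndfip1. Arrdc1 had 214 and 211 TPM, Arrdc3 had 24.6 and 23.4 TPM, Arrdc2 had 19.8 and 22 TPM and Arrdc4 had 21.5 and 15.6 TPM. All 7 adaptor genes were detected. Ndfip1 took 40.5 ± 1.5% and Ndfip2 took 6.09 ± 0.25% of their summed TPM. By estimated counts, which favour long transcripts, Txnip was the highest of this list and not Ndfip1.

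Ndfip1 was described mainly by Ndfip1-204 (221 codons), with 71.1% and 77.1% of TPM. Ndfip1-203 (214 codons), which starts at an upstream first exon, took 19.2% in library 1 and 13.8% in library 2. Models of Ndfip2 were less complete. Ndfip2-202, with a coding region of 311 codons that is incomplete in the annotation, took 50.1% and 54.3% of TPM. The noncoding model Ndfip2-203 took 29.1% and 26.6%. Ndfip2-206, the complete coding model of 338 codons, took 18.1% and 15.9%. The summed share of complete coding models was therefore lowest for Ndfip2 among the 10 genes, at 17.0 ± 1.56%.

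Traf3 (chromosome 12, 111166370 to 111267153) and Traf6 (chromosome 2, 101678429 to 101701669) encode adaptors of the TNF receptor family and, for TRAF6, of the interleukin 1 and Toll-like receptors. TRAF6 acts as a RING-type ligase that builds lysine-linked chains with the E2 pair Ube2n and Ube2v1, and TRAF3 holds the kinase NIK, the product of Map3k14, at low levels. Traf3 had 33.4 TPM in library 1 and 30.3 TPM in library 2 (31.9 ± 2.20 TPM). Traf6 had 29.5 and 27.9 TPM (28.7 ± 1.17 TPM). Both genes lay near the median of detected protein-coding genes, at percentiles 50.8 and 47.7. Traf3 exceeded Traf6 1.13-fold and 1.09-fold, and the library ranges of the 2 genes did not overlap. Their deposited intervals did overlap, at 29.0 to 34.0 TPM against 26.2 to 29.2 TPM in library 1. In library 2 the intervals were 26.1 to 30.9 TPM for Traf3 and 25.2 to 27.3 TPM for Traf6. Because the intervals overlap, the order of the 2 genes is not resolved. The TPM of Traf6 lay above its own interval in both libraries, which limits this comparison. By estimated counts Traf6 was the higher gene, with 3525 and 3442 against 2892 and 2707. Counts are not corrected for length and do not rank the 2 genes by abundance.

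The 2 genes were the lowest of the 7 TRAF genes by TPM, all of which were detected. Traf1 was highest at 320 and 319 TPM, followed by Traf5 at 112 and 106 TPM, Traf7 at 70.9 and 64.9 TPM, Traf2 at 67.2 and 67.3 TPM and Traf4 at 42.0 and 35.5 TPM. Traf1 exceeded Traf3 9.59-fold and 10.5-fold. Traf3 held 4.80 ± 0.21% and Traf6 4.33 ± 0.064% of the TRAF family's TPM. By estimated counts, which are not length-corrected, the shares were 9.57% and 11.9%, and the leading models are long (7060 bases for Traf3-201 and 6169 for Traf6-201).

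All 12 genes of the list of TRAF pathway partners were detected. Ube2n was highest at 241 and 228 TPM, and Tab3, a subunit of the TAK1 kinase complex, was lowest at 6.68 and 5.50 TPM. Map3k14 stood at 30.6 and 31.7 TPM, and the ratio of Traf3 to it was 1.09 in library 1 and 0.956 in library 2, on either side of 1.

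Traf6 was described almost wholly by Traf6-201 (530 codons), with 90.5% and 97.7% of TPM. Traf3-201 (567 codons) took 52.1% and 51.8% of Traf3 TPM but 89.2% and 83.4% of counts. The difference lies with Traf3-204, a model of 645 bases that is incomplete in the annotation and ends at 111239077: it took 39.9% and 37.5% of TPM on 168 and 139 counts, which are 5.81% and 5.13% of the gene's counts. Models of 542 codons, which lack the 75-base exon shown above, took 1.35% and 6.07% of TPM. That form had 65.9 and 262 counts in the libraries, with deposited intervals for Traf3-203 of 0.0212 to 2.02 TPM and 0.794 to 3.38 TPM that overlap.

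Cyld (chromosome 8, 88697028 to 88751945) encodes a deubiquitinase that cleaves lysine 63-linked and linear chains and counteracts TRAF signalling. It had 113 TPM in library 1 and 96.5 TPM in library 2 (105 ± 11.96 TPM), the third level of the 10 genes. Among 10 listed deubiquitinases, all detected, Otud5 was highest at 184 and 164 TPM and Cyld was next by mean. Otud7b was lowest at 16.5 and 10.7 TPM. By estimated counts Cyld was highest instead, with 11019 and 9233 against 8561 and 7420 for Otud5. Tnfaip3, which encodes A20, another brake on NF-kB, stood at 52.2 and 48.9 TPM, and Cyld exceeded it 2.17-fold and 1.97-fold. All 6 genes of the list of linear ubiquitin and Cyld partners were detected. Rbck1, a subunit of the linear chain ligase, was highest at 282 and 262 TPM, and Spata2, which bridges Cyld to that ligase, was lowest at 22.5 and 23.9 TPM.

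The 3 coding models of Cyld with 952 codons together took 77.3 ± 0.42% of its TPM. They were Cyld-210 with 38.6% and 42.4%, Cyld-206 with 28.05% and 22.8% and Cyld-203 with 10.95% and 11.7%. Cyld-204, the model of 770 codons without the 2 exons, took 8.35% and 11.2%, or 9.47 and 10.8 TPM, with deposited intervals of 5.55 to 12.8 TPM and 7.08 to 13.8 TPM. Models with the 9-base exon (955 codons) took 0.679% of TPM in library 1, all from Cyld-202, and 0.684% in library 2, all from Cyld-201. This holds for the point TPM only. By posterior means the same form took 3.63% and 3.21%, spread over Cyld-201, Cyld-202 and Cyld-205 in both libraries, and the deposited intervals of Cyld-201 and Cyld-202 overlap, so neither the share nor its model is resolved.

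**Figure D2:**
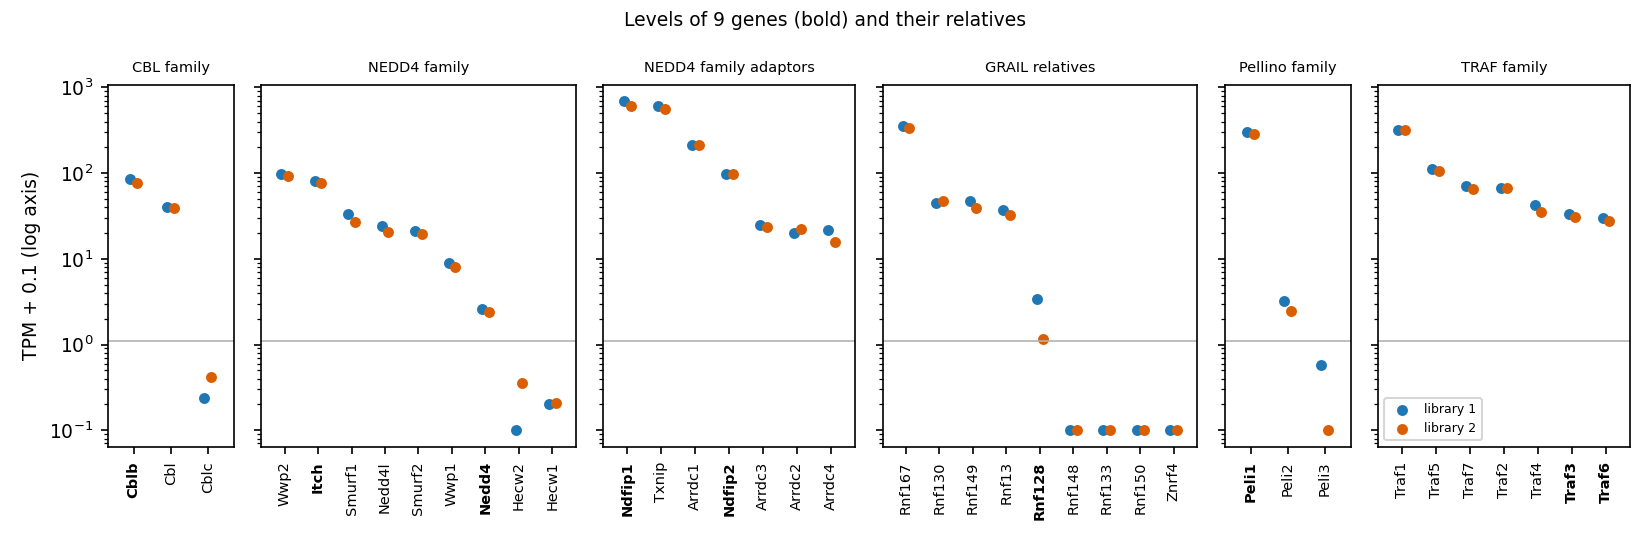
TPM plus 0.1 (log axis) of 9 of the 10 genes (bold, without Cyld) and of their relatives in 6 lists, in library 1 and library 2; the grey line marks the 1 TPM used for detection. Cblb, Ndfip1 and Peli1 lead their lists, whereas Nedd4, Rnf128 and Traf6 are the lowest detected genes of theirs.

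The transcript classes are set side by side in the plot of classes. Of 64 annotated models of the 10 genes, 47 had a TPM above 0 in both libraries and 26 took at least 10% of their gene in at least 1 library. The leading model was protein-coding in 9 of 10 genes by TPM, with Cblb as the exception, and in 10 of 10 by estimated counts. Retained-intron models are annotated for 8 of the 10 genes. Their share of TPM was 38.1 ± 2.82% in Cblb, 37.5 ± 1.01% in Itch, 23.8 ± 10.02% in Nedd4 and 16.3 ± 0.085% in Peli1. It was 8.15 ± 0.96% in Cyld, 5.63 ± 1.43% in Traf3, 4.89 ± 0.56% in Ndfip1 and 2.88 ± 0.37% in Ndfip2. The median of these 8 genes was 12.2%, close to the 12.9% of the 6479 detected protein-coding genes with such a model (quartiles 4.86% and 27.8%). The shares of Cblb and Itch lay above the upper quartile of that background. By estimated counts this held for Cblb (31.4%) but not for Itch (17.8%), against an upper quartile of 18.7%.

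**Figure D3:**
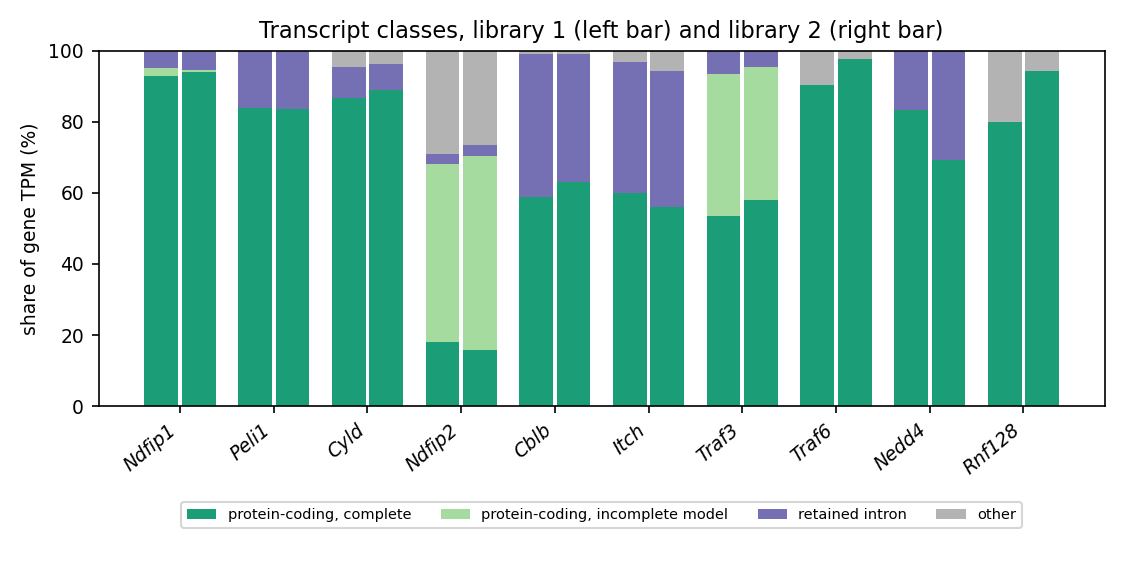
Share of gene TPM (%) in complete protein-coding, incomplete protein-coding, retained-intron and other transcript models, for each gene in library 1 (left bar) and library 2 (right bar). Retained-intron models took 40.1% and 36.1% of Cblb, and incomplete coding models took most of the Ndfip2 bars and 39.9% and 37.5% of Traf3.

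Shares by TPM and by estimated counts departed in both directions. The short models Traf3-204, Itch-204 and Peli1-204 took a larger share of TPM than of counts. The long models Traf3-201, Nedd4-201, Itch-201 and Cblb-201 took a larger share of counts, and the widest gap of those named was that of Traf3-201. Both views come from the same deposited estimates, in which reads shared between models are divided by a model.

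**Figure D4:**
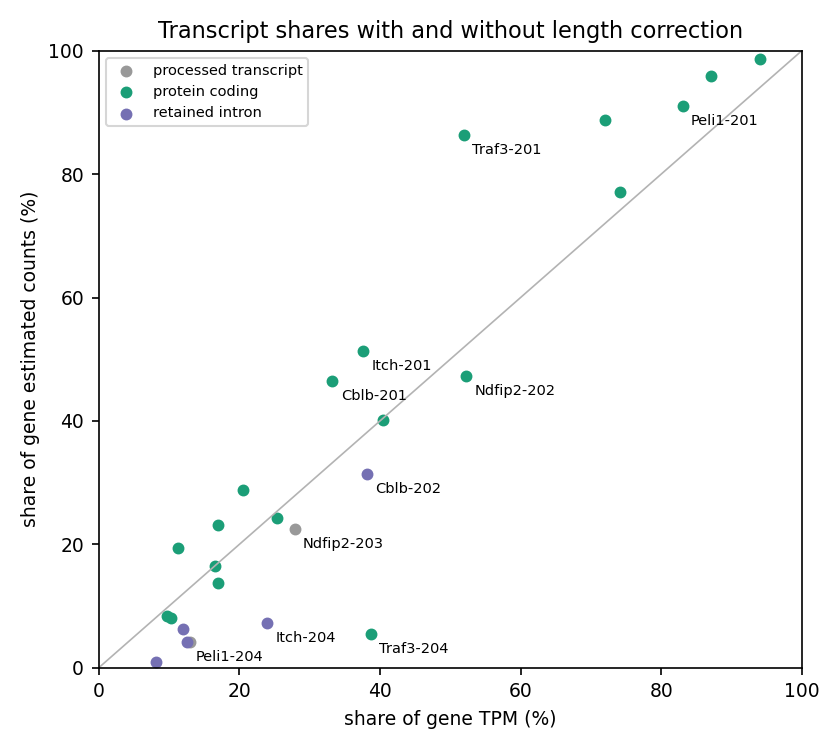
Share of gene estimated counts (%) against share of gene TPM (%), each the mean of 2 libraries, for the 26 transcript models with at least 10% of gene TPM in at least 1 library; the line marks equal shares. Traf3-204 lies at 38.7% of TPM and 5.47% of counts, and Traf3-201 at 52.0% of TPM and 86.3% of counts.

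Of the other pathway genes, 83 of 91 listed genes that are not among the 10 were detected, and their median was 52.3 TPM. All 8 that were not detected belong to the families above. The 6 genes of the E1 and E2 list were all detected, from Ube2e3 at 17.0 and 20.1 TPM to Ube2d3 at 551 and 520 TPM. The 10 described substrates were detected, led by Lck, the proximal T cell receptor kinase, at 1271 and 1196 TPM, and Rel was the lowest. All 11 anergy genes, a set linked to T cell unresponsiveness, were detected. They ranged from Lag3, an inhibitory receptor, at 2.88 and 3.17 TPM to Dgka, a diacylglycerol kinase that dampens receptor signals, at 628 and 612 TPM. Rnf128 had a lower TPM than Lag3 in library 2 and a higher one in library 1. The 8 other ligases with a described role in Treg cells were detected, from Siah2 at 10.1 and 8.06 TPM to Stub1 at 142 and 143 TPM.

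Between the technical libraries, Rnf128 differed most of the 10. Its 160 estimated counts in library 1 stood against 56 in library 2, a log2 ratio of -1.39 (library 2 over library 1, scaled by TMM library sizes, 95% exact interval -1.87 to -0.95). The exact binomial test with Benjamini-Hochberg adjustment over all genes gave p = 1.03e-09. This test compares the libraries and covers counting error only. The exact test of edgeR with a common dispersion gave an adjusted p = 0.0164. Each side of that test is 1 library, and its dispersion was estimated over all genes from the same 2 libraries, so it ranks a gene against the general gap between them and is no independent measure of technical spread. In the separately deposited M4 count tables the gene had 88 and 29 counts, a log2 ratio of -1.5, with an adjusted p = 1.18e-05 by the exact binomial test. Its absolute ratio exceeded that of 99.5% of 12244 genes with 100 or more summed counts. Among 2729 genes with 100 to 500 summed counts, 59 (2.16%) had a ratio at least as large.

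Some markers of other cells also differed between the libraries. Of 22 listed markers of other cells, 19 could be tested. By the binomial test, 5 were called higher in library 1 and 2 higher in library 2. Over all 18746 tested genes, 36.5% were called in either direction and 19.2% higher in library 1. Calls among the markers in either direction lie near the first share, but that share is not matched for counts. With no count minimum, 6463 of 31928 genes were called, and with a minimum of 100 summed counts, 5522 of 12244. Several markers had few counts, so the comparison cannot tell whether they differ from other genes. The markers higher in library 1 were the myeloid genes Adgre1 (62 and 17 counts) and Csf1r (315 and 182 counts), the B cell gene Ms4a1 (137 and 71 counts), Col1a1 (14 and 1 counts) and the globin gene Hbb-bt (370 and 281 counts). Those higher in library 2 were the dendritic cell gene Flt3 (7 and 36 counts) and Cd8a (72 and 117 counts). Their lists did not move as a whole: Xcr1 had 19 and 13 counts, Zbtb46 had 134 and 131, and Cd8b1 had 731 and 685. The 4 myeloid markers summed to 20.5 and 14.5 TPM and the 3 dendritic cell markers to 2.02 and 2.02 TPM. The 3 genes of stroma and endothelium were at 0.37 TPM in sum in library 1 and 0.01 TPM in library 2. Their part in the Rnf128 difference was not tested.

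By the binomial test, 3 of the 10 genes were called, all higher in library 1, where 36.5% of 18746 tested genes were called in either direction and 19.2% were called higher in library 1. Beside Rnf128 these were Cyld, with 11019 and 9233 counts (log2 ratio -0.14, adjusted p = 1.23e-10), and Ndfip1, with 24635 and 20976 counts (log2 ratio -0.12, adjusted p = 2.26e-16). The share of 3 in 10 lies near the background, which is not matched for counts. By the edgeR exact test, with the limit given above, 2.98% of the tested genes were called and Rnf128 was the single call among the 10. In the M4 counts Ndfip1 had a log2 ratio of 0.07 and Cyld one of -0.09, and neither passed the test (adjusted p = 0.413 and 0.0578, exact binomial test). The other 7 genes were not called. Their log2 ratios lay between -0.21 for Nedd4 (95% exact interval -0.49 to 0.07) and 0.08 for Traf6 (0.01 to 0.15). All 10 genes had the higher TPM in library 1, as did 66.3% of detected protein-coding genes. By the TMM-scaled counts that the test uses, 6 had the higher value in library 1 and 4 (Ndfip2, Peli1, Traf3 and Traf6) in library 2. The direction of these 4 thus depends on the measure. TPM and the scaled counts differ in library scaling and in length correction, and the part of each was not tested. Of the other pathway genes, 86 could be tested. Library 1 had the larger value in 36 of the calls and library 2 in 10. Calls towards library 1 were thus more frequent among these 86 genes than the 19.2% of all tested genes. Calls in either direction were also more frequent than the 36.5% of all tested genes. The median log2 ratio was -0.059 for the pathway genes and 0.00094 for all tested genes. Again the background is not matched for counts, and the part of counts in this departure was not tested.

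**Figure D5:**
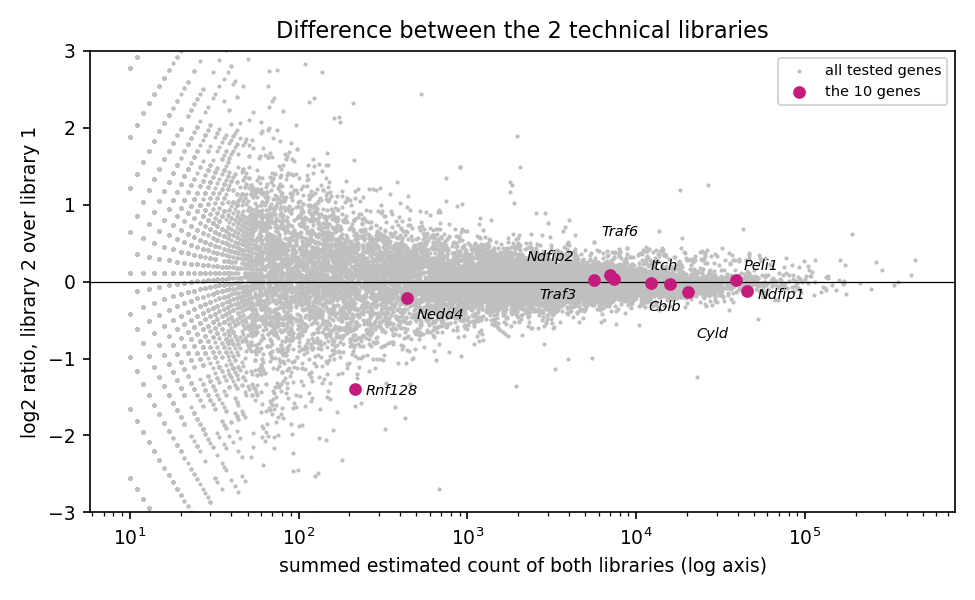
Log2 ratio of library 2 over library 1 against the summed estimated count (log axis) for all tested genes (grey) and the 10 genes (coloured); 508 of 18746 genes lie outside the plotted range of 3 either way. Rnf128 lies at -1.39, Nedd4 at -0.21, and the other genes lie within 0.15 of 0.

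The M4 count tables, made from genome alignments, hold far fewer reads than the M21 estimates, and the gap differed between the 10 genes. M4 counts came to 55.0% and 51.8% of the estimated counts for Rnf128 and to 56.0% and 68.6% for Nedd4. They came to 35.8% and 37.9% for Cyld, 34.6% and 34.2% for Itch, and 30.3% and 31.2% for Cblb. Traf6, Traf3 and Ndfip2 lay between 26.3% and 28.9%. For Peli1 the share was 12.8% and 13.7%, and for Ndfip1 it was 5.90% and 6.86%. The highest genes, Ndfip1 and Peli1, thus had the lowest share. In between, share did not follow level: Traf3 and Traf6 had lower TPM than Cyld, Itch and Cblb and also a lower share. Over all detected protein-coding genes the median share in library 1 fell as level rose. It was 53.3% for 2485 genes at 1 to 10 TPM and 49.97% for 4275 genes at 10 to 50 TPM, the level of Traf3 and Traf6. It was 37.6% for 2930 genes at 50 to 200 TPM and 14.8% for 682 genes at 200 to 1000 TPM. Per kilobase, M4 counts spread less than TPM at the upper end. In library 1 they were 867 for Ndfip1, 859 for Cyld and 813 for Peli1, although Ndfip1 had 695 TPM there and Cyld 113 TPM. How the M4 reads were counted is not stated, which limits what the M4 ratios of the highest genes, Ndfip1 and Peli1, can show. What separates the tables was not tested, and levels are given from the M21 tables.

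The deposited TPM and the deposited credibility interval did not coincide for most of the genes. In 7 of the 10 genes the TPM lay above the upper bound of its own interval in both libraries, for example 695 TPM for Ndfip1 with an interval of 639 to 657 TPM. Traf3, Nedd4 and Rnf128 lay inside their intervals in both libraries. For Rnf128 the posterior mean was 3.18 TPM (2.57 to 3.89 TPM) in library 1 and 1.19 TPM (0.812 to 1.62 TPM) in library 2, and these intervals did not overlap.

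RefSeq promoter windows (250 bases before to 50 bases after a start site, GRCm38) were matched for 8 of the 10 genes, 9 windows in all, with 2 for Nedd4. The start of Rnf128-201 matched the RefSeq start, and models that begin within 100 bases of the RefSeq start took 96.0% and 95.4% of Peli1 TPM, 94.4% and 100.0% of Traf6 TPM and 71.2% and 69.6% of Cyld TPM. For Ndfip2 that share was 18.1% and 15.9%. The downstream of the 2 Nedd4 starts had no model beginning there. GC content of the windows ranged from 46.7% at that start to 84.0% in Traf3, against a median of 52.7% over all 32851 windows.

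Motifs were searched on both strands. The NFAT core GGAAA was found in 6 of 9 windows, against 61.3% of all windows. The AP-1 motif TGANTCA was in 1 of 9, against 7.81%, and the EGR motif GCGTGGGCG was in 0 of 9, against 0.612%. A match is a description of letters, not a bound site, and no match says only that these letters are not in the window.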

How the data were processed

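The polyA RNA-seq tables of 2 technical libraries of 1 biosample were used as the authors deposited them on mm10. Per the file headers, the gene and transcript tables (GENCODE M21, transcriptome alignments) give the authors' estimated counts, TPM, FPKM and percent of isoform. The authors' M4 tables hold whole-number counts per gene from genome alignments. The sources used here do not give the aligner, quantifier, strandedness or versions. Effective length in the deposited tables equals annotated length minus 49 (never under 0) for 100.0% of 168207 transcripts. Rows that name no gene took 0.197% and 0.212% of counts and were left out. Depth was 34697128 and 32049199 estimated counts and 9576557 and 8937887 M4 counts.

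The members and lists were chosen with earlier results of these data known. Genes were matched by GENCODE M21 symbol, and all 134 listed symbols matched. Detection required 1 TPM in both libraries. Shares are percent of gene or list TPM. Retained intron is the annotation's class. Named in the text are all 10 genes, models with at least 10% of gene TPM in at least 1 library, relatives of a member, the highest and lowest detected gene of each list, and genes under 1 TPM. Map3k14, Tnfaip3, cell markers beyond Foxp3 and Il2ra, and models under 10% (Rnf128-202, Traf3-203, Cyld-201 and Cyld-202) fall partly outside this rule and were named after their values were seen.

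Estimated counts were rounded. A two-sided exact binomial test set each gene's pair against TMM-scaled sizes (edgeR 4.0.16), for genes with 10 or more summed counts, with Benjamini-Hochberg adjustment at 0.05. With 1 library a side, no residual degrees of freedom remain for edgeR's quasi-likelihood test. Alternatives were edgeR's exact test with a common dispersion of 0.0228 (both libraries as 1 group), library totals, DESeq2 1.42.0 size factors, other count minimums (none, 100), the M4 counts, FPKM, posterior mean TPM, other detection minimums and each library alone. Log2 ratios add a prior count of 0.5. Intervals and the limit of 3 counts for a count of 0 cover counting error only, since PCR copies are not independent molecules. The tests were tested on simulated data. Python 3.11.15 and R 4.3.3 were used. Sequences are from GENCODE M21 transcripts and RefSeq promoters (GRCm38).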

Additional observations from a re-analysis of the deposited data

Results flagged for a closer look

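Reads were also assigned to genes that overlap 5 of the 10 genes. These reads are part of the library totals but not of the counts of the 10 genes. Overlapping genes are annotated for 9 of the 10 (14 genes), and 6 of these had more than 3 estimated counts, the limit that a count of 0 allows, in both libraries. Within Peli1, the pseudogene 2610024D14Rik on the same strand had 35 and 41 estimated counts. Within Cyld, the pseudogenes Gm17995 and Gm17910 on the opposite strand had 8 and 6, and 13 and 22. The opposite-strand gene 4930595D18Rik overlaps Traf3 and had 9 and 14. The pseudogene Gm14227, opposite to Itch, had 6.65 and 7.89, and Gm36936, on the strand of Nedd4, had 6 and 5. Strandedness is not given, so reads of a gene and an opposite-strand partner may not be told apart.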

How the results depend on the processing

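The median of the 10 genes was 49.6 by FPKM and 74.4 TPM by posterior means against 79.6 TPM, and 76.9 to 82.3 TPM from each library alone. All 10 genes kept their place in the order by FPKM and posterior means; with each library alone 6 to 8 did, and with M4 counts per kilobase, an alternative chosen after seeing the data, 7 did. At a minimum of 5 TPM 8 genes were detected (not Nedd4 and Rnf128), and by FPKM 9 (not Rnf128). Of the 10 genes, 3 were called between libraries with library totals, DESeq2 size factors or no count minimum, and 4 with a minimum of 100, Traf6 being added (log2 ratio 0.09, adjusted p = 0.0331, exact binomial test), whose M4 ratio was -0.06 without a call. The edgeR exact test, the M4 counts, and the M4 counts with edgeR's common dispersion (chosen after seeing the data) called 1 each, Rnf128. In both M4 analyses the ratio of Ndfip1 turned from -0.12 to 0.0716, without a call; the cause was not tested, and how M4 reads were counted is not stated. The number of genes that lead their list was 3 in all settings but estimated counts, where it was 4. By estimated counts Itch and Cyld led in place of Wwp2 and Otud5, and Ndfip1 no longer led. Listed pathway genes detected were 81 at 5 TPM and 83 by posterior means. By posterior means, the share of the leading model moved by more than the SD of the libraries in 3 genes (Nedd4, Rnf128 and Traf3). It did not in the other 7. Depth limits Nedd4 and Rnf128 most, whose minor models rest on fewer than 20 counts. No paired analysis was possible because the samples form 1 group.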
